A study of Mus musculus with 15 samples.

Results

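The comparison described here sets colon tissue of mice given DSS and immune checkpoint blockade (the group DSS+ICB, 5 mice) against colon tissue of mice given DSS alone (the group DSS, 5 mice). The members are all 10 samples with these treatment labels, of 15 in the series, and the test covered every gene at 1 FPKM or more in at least 5 of the 15 libraries, which is 14385 of the 55335 genes in the files. FPKM counts sequenced fragments relative to transcript length and to the total of the library. The 5 remaining mice had DSS, ICB and a gavage of the gut bacterium F. prausnitzii, and they entered the filter but no test.

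DSS (dextran sulfate sodium) is a polymer that damages the colon lining when mice drink it, and ICB is treatment that blocks an inhibitory receptor or ligand of T cells. All mice of the design received DSS, and no value here compares it with healthy colon. The labels give no strain, sex, age, dose, day of DSS or region of the colon, they name neither the antibodies nor a control antibody, and they do not say whether the mice of a group shared a cage. The blockade, its administration and the housing of the mice therefore cannot be told apart, and p-values measure the spread between these samples only. The tissue is a mixture of cell types, and more cells of a type and more RNA per cell cannot be told apart in it.

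The colon lining is a single layer of epithelial cells. Absorptive colonocytes take up salt, water and butyrate, goblet cells make mucus, and stem cells in the crypts replace both. When bacteria cross a damaged lining, epithelial cells, macrophages and fibroblasts release IL-1, chemokines and cytokines that signal through the gp130 receptor chain, neutrophils enter from the blood, and fibroblasts produce enzymes that cut and rebuild the matrix. Checkpoint receptors such as those encoded by Pdcd1 and Ctla4 restrain T cells, and colitis is a known side effect of blocking them in patients.

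The libraries had estimated depths of 15.4 to 25 M (mega) fragments and 13375 to 14336 genes at 1 FPKM or more. The colon epithelial genes Epcam, Krt8 and Vil1 and the muscle gene Des were detected in all 10 libraries, as the label colon tissue implies. One library stood apart, DSS+ICB 3, with a median rank correlation of 0.725 to the rest, followed by DSS+ICB 5 at 0.864, against at least 0.931 for the other 8. Epcam, a surface protein of all epithelial cells, was 525, 558, 621, 660.5 and 602 FPKM in DSS 1 to 5 and 624, 638, 83.02, 508 and 472 FPKM in DSS+ICB 1 to 5. Des, a filament protein of muscle, was 175, 189, 546, 332 and 119 FPKM in DSS and 123, 92.2, 1713, 309.8 and 308 FPKM in DSS+ICB. Thus DSS+ICB 3 held the least epithelial RNA and the most muscle RNA of the 10 libraries by these genes (both genes were named to describe this library). Where leaving out 1 mouse turned the sign of a list's median or moved it by more than 1.5 times, the median is followed by its value without that mouse or by its lowest and highest value over the 10 ways of leaving out 1 mouse.

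With limma on log2(FPKM + 1), 1 of 14385 genes had an adjusted p (Benjamini-Hochberg) under 0.05, a background of 0.00695%. Unadjusted p was under 0.05 for 1152 genes, 797 of them higher and 355 lower in DSS+ICB. In all, 174 genes had every DSS+ICB mouse above every DSS mouse, 1.21% of the genes tested, and 47 genes had every DSS+ICB mouse below every DSS mouse, 0.327%. These are called separated genes from here on, and separation of the groups is a description and not a test. These shares are the background for every count of separated members below, and a count of 0 in a short list is near them. A gene could pass the filter through the 5 DSS+ICB mice alone. Their values sufficed for Il1a, Osm and Spp1, which were under 1 FPKM in every DSS mouse. They also sufficed for Saa3 (DSS 1), Il11 (DSS 2) and Il1r2 (DSS 1), where brackets name the only DSS mouse at 1 FPKM or more. The presence of such genes among those tested depends on the group where they are high. The split into 174 higher and 47 lower depended on the scaling between libraries, being 173 and 85 with median-of-ratios factors, 140 and 109 with upper-quartile factors and 115 and 58 after rescaling without mitochondrially encoded genes. The genes with an unadjusted p under 0.05 split into 726 and 652, 675 and 737, and 625 and 428 under the same 3 scalings.

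**Figure D1:**
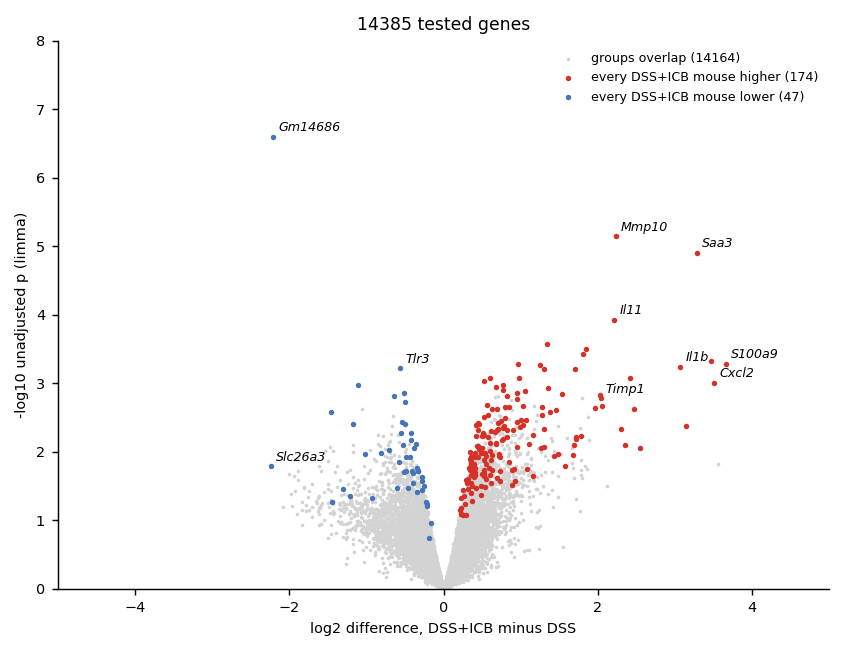
Each point is 1 of 14385 genes, with the log2 difference (DSS+ICB minus DSS) on the horizontal axis and -log10 of the unadjusted limma p on the vertical axis. The 174 separated higher genes are red, the 47 separated lower genes are blue, and Gm14686, Mmp10, Saa3 and Il11 have the smallest p-values of the labelled genes.

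Among the 12 separated higher genes with the largest differences that the naming rule took were S100a9, Cxcl2, S100a8, Saa3, Acod1 and Il1b. Promoters of 11 of the 12 were found in the RefSeq promoter table (build GRCm38.p6, from 250 bases before to 50 after the start of the gene). The sequences of the first 6 are printed because these genes carry the largest differences and are known targets of inflammatory transcription factors, and the capitals mark matches on either strand to GGNNNTTCC (NF-kB type), TGANTCA (AP-1), TTGCNNAA (C/EBP type) or TTCNNNGAA (STAT type). S100a9 lies at chr3:90695672-90695971 on the minus strand, Cxcl2 at chr5:90903649-90903948 on the plus strand, S100a8 at chr3:90668821-90669120 on the plus strand, Saa3 at chr7:46715627-46715926 on the minus strand, Acod1 at chr14:103046762-103047061 on the plus strand and Il1b at chr2:129371090-129371389 on the minus strand. Each is written 5′ to 3′ along its gene.
S100a9: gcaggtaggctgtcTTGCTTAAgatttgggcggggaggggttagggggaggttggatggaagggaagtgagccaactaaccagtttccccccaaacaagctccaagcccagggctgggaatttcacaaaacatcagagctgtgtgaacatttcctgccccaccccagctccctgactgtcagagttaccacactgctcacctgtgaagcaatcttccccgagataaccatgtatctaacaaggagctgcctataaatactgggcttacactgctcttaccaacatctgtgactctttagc
Cxcl2: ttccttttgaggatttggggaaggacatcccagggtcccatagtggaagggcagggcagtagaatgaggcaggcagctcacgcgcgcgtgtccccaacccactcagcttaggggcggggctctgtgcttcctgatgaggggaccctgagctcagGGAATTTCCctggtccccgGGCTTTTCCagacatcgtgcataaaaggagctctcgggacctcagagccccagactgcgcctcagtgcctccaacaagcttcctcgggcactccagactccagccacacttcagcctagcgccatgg
S100a8: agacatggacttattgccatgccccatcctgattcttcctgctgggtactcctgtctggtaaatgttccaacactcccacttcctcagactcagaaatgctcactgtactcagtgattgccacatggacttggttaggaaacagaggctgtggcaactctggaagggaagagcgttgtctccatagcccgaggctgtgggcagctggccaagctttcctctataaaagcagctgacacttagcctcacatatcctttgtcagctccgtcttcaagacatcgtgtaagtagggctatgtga
Saa3: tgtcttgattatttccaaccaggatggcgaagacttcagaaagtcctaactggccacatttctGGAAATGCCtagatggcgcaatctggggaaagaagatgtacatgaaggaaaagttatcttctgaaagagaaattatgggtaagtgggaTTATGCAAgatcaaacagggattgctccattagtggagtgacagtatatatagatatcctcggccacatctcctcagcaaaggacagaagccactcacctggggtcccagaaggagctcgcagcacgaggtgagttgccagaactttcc
Acod1: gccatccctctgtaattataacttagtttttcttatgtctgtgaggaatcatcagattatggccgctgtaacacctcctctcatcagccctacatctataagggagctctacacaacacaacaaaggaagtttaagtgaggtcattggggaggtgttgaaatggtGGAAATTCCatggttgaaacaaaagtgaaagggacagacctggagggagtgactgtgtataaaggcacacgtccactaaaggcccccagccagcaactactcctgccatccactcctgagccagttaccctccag
Il1b: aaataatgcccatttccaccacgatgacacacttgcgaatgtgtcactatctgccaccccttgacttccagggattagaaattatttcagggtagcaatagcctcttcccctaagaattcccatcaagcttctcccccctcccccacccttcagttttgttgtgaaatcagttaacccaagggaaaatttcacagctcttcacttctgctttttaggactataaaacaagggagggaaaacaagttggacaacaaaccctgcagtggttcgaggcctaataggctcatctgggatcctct
Cxcl2 holds 2 NF-kB type matches, GGAATTTCC from position -96 and GGCTTTTCC from position -77 relative to the start, and no matches overlap each other. Acod1 holds 1 NF-kB type match, GGAAATTCC from -85. The Saa3 promoter has a reverse-strand NF-kB type match, GGAAATGCC from -187, and a reverse-strand C/EBP type match, TTATGCAA from -99. S100a9 has 1 C/EBP type match, TTGCTTAA from -236. Neither S100a8 nor Il1b has a match to these letters in this window. Of all 32851 promoters in the table, 18.5% hold the NF-kB type letters, 7.81% AP-1, 10.8% C/EBP type and 8.3% STAT type. Among 123 separated higher genes with a promoter the shares were 23.6%, 6.5%, 14.6% and 8.94%, beside 22.2%, 5.13%, 8.12% and 6.89% among the 9924 tested genes with one. The matches describe the letters in these windows and say nothing about binding.

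Among the acute phase genes, 3 were separated and higher, Saa3, Hp and Lcn2. Saa3 (ENSMUSG00000040026, chromosome 7, 46711998 to 46715700 on GRCm38), a serum amyloid made by epithelial cells and macrophages in inflamed tissue, was 1.78, 0.174, 0.192, 0.231 and 0.704 FPKM in DSS 1 to 5 and 10.6, 5.09, 23.2, 11.7 and 31.5 FPKM in DSS+ICB 1 to 5. All 5 DSS+ICB mice lay above the highest DSS mouse, DSS 1, and DSS+ICB 5 and DSS+ICB 3 were highest. The log2 difference was 3.28 ± 0.43 (SE, limma adjusted p = 0.0594), just outside the threshold, and it was 2.67 without DSS+ICB 3 and DSS+ICB 5. Hp, the haemoglobin-binding protein haptoglobin, was 2.77, 0.794, 1.28, 4.02 and 1.01 FPKM in DSS and 9.22, 5.71, 30.7, 6.96 and 38.4 FPKM in DSS+ICB. Lcn2, which withholds iron from bacteria by binding their siderophores, was 1.83, 1.19, 0.759, 1.65 and 0.672 FPKM in DSS and 2.91, 2.34, 26.8, 2.65 and 11.04 FPKM in DSS+ICB. Both were separated, with log2 differences of 2.42 and 1.67 that fell short of the limma threshold (adjusted p = 0.6001 each) and were 1.57 and 0.74 without both mice. Of 16 tested acute phase and antimicrobial genes, 10 lay above 0 and the median was 0.31, from 0.02 without DSS+ICB 4 to 0.68 without DSS+ICB 3. The complement gene C3 had 0.69, and 0.38 without DSS+ICB 5. Pigr, the epithelial antibody transporter, had -1.19, and -0.62 without DSS+ICB 3.

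Neutrophil genes formed the list with the most separated members, 9 of 16 tested (56.2%), beside 1.21% of all tested genes. Members such as Il1r2 could pass the filter through the DSS+ICB mice alone, so this share depends in part on the group where they are high. S100a9, which with S100a8 forms calprotectin, the main cytosolic protein of neutrophils, was 30.7, 22.7, 7.801, 18.1 and 12.6 FPKM in DSS and 133, 72.4, 1228, 85.7 and 519 FPKM in DSS+ICB. S100a8 was 15.9, 10.1, 4.22, 11.8 and 6.802 FPKM in DSS and 64.5, 35.3, 593, 52.2 and 218 FPKM in DSS+ICB. In both genes DSS+ICB 3 and DSS+ICB 5 were far above the other 3 DSS+ICB mice, and these 3 in turn were all above DSS 1, the highest DSS mouse. The log2 differences were 3.66 ± 0.75 and 3.47 ± 0.70 (SE, limma adjusted p = 0.597 each), and 2.43 and 2.33 without DSS+ICB 3 and DSS+ICB 5. Retnlg, a resistin-like protein of myeloid cells, was 4.62, 3.48, 4.01, 3.16 and 4.49 FPKM in DSS and 14.4, 7.68, 120.2, 14.2 and 58.97 FPKM in DSS+ICB. Il1r2, a decoy receptor that takes up IL-1, was 1.14, 0.5901, 0.574, 0.663 and 0.455 FPKM in DSS and 4.604, 3.41, 18.8, 1.46 and 11.2 FPKM in DSS+ICB. The separated group also held the G-CSF receptor Csf3r (log2 difference 1.79), the lectin receptor Clec4d (1.96), the formyl peptide receptor Fpr2 (1.69), G0s2 (1.72) and the inhibitory receptor Lilrb4a (1.43). Not separated, but above 0, were the chemokine receptor Cxcr2 (1.6), Trem1 (1.89) and the gelatinase Mmp9 (1.39). Ly6g had 0.48, which was 0.78 without DSS+ICB 3 and 0.16 without DSS+ICB 5.

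The median of the neutrophil list was 1.71, with 16 of 16 tested members above 0, beside a median of 0.02 over all tested genes. It was 1.28 without DSS+ICB 3, 1.45 without DSS+ICB 5 and 0.82 without both. On the mean of the members per mouse, DSS+ICB 1 to 5 lay 1.17, 0.76, 3.01, 0.77 and 2.77 above the DSS mean on the log2 scale, and the highest DSS mouse lay 0.20 above it. Of the granule genes of immature neutrophils, Elane was listed at 0 in all 10 libraries, and Mpo, Ngp and Mmp8 missed the filter. Missing the filter does not show a level near 0 in every library.

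**Figure D2:**
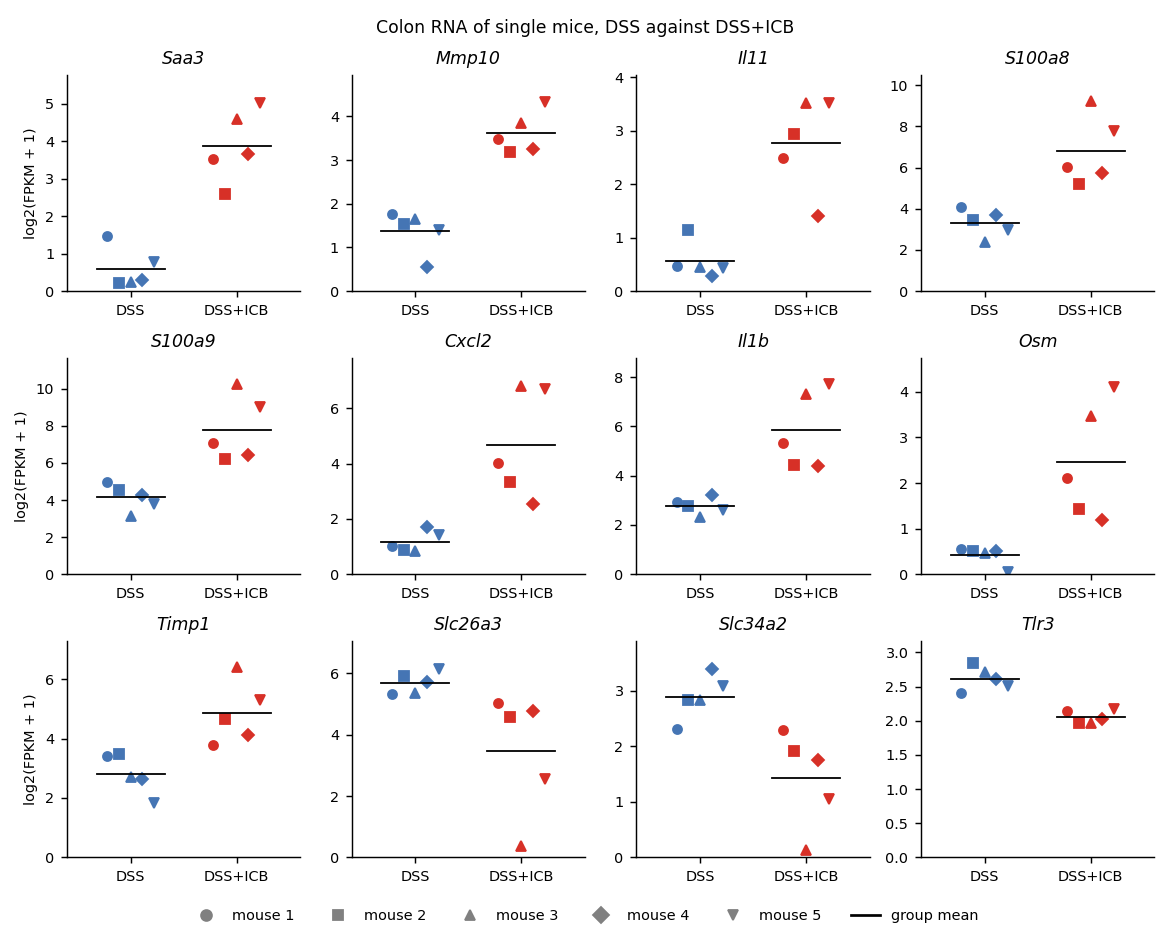
Levels of 12 genes in single mice as log2(FPKM + 1), with a symbol for each of the 5 mice of a group and a line at the group mean. In each panel the groups do not overlap. For S100a8, S100a9, Cxcl2, Il1b and Osm the triangles of DSS+ICB 3 and DSS+ICB 5 are the highest points, and Slc26a3 and Slc34a2 are lowest in DSS+ICB 3.

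The 3 separated chemokine genes, Cxcl2, Ccl3 and Ccl22, were highest in DSS+ICB 3 and DSS+ICB 5. Cxcl2, a ligand of the neutrophil receptor Cxcr2, was 1.05, 0.825, 0.7897, 2.28 and 1.64 FPKM in DSS and 15.2, 9.14, 112, 4.795 and 102 FPKM in DSS+ICB. The log2 difference of 3.51 ± 0.78 (SE, limma adjusted p = 0.6001) was 2.13 without DSS+ICB 3 and DSS+ICB 5. The other tested ligands of that receptor, Cxcl1 and Cxcl5, had 1.26 and 1.16, with overlapping groups. Among 14 tested CC chemokines, 2 were separated and higher (14.3%), beside 1.21% of all tested genes. Ccl3, which macrophages and neutrophils release, was 0.838, 0.789, 1.39, 0.662 and 1.04 FPKM in DSS and 3.59, 3.02, 40.9, 2.63 and 63.3 FPKM in DSS+ICB. Ccl22, a product of mature dendritic cells, was 1.22, 0.967, 1.32, 0.951 and 0.9703 FPKM in DSS and 1.46, 1.46, 2.22, 1.81 and 4.41 FPKM in DSS+ICB, a narrow separation of DSS 3 from DSS+ICB 1 and DSS+ICB 2. The monocyte attractants Ccl2 and Ccl7 had log2 differences of 1.09 and 1.26, while the epithelial chemokines Ccl20 and Ccl28 had -0.57 and -1.49 (-0.74 for Ccl28 without DSS+ICB 3). The CC chemokine median was 0.53, and 0.28 without both mice.

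Of the IL-1 family cytokines, Il1b and Il1a were separated and higher, and Il33 and Il18 were not separated. Il1b, the inducible cytokine of myeloid cells, was 6.67, 5.91, 4.02, 8.204 and 5.15 FPKM in DSS and 39.3, 20.8, 160.1, 19.9 and 211 FPKM in DSS+ICB. Il1a, released by damaged cells, was 0.626, 0.4302, 0.722, 0.455 and 0.439 FPKM in DSS and 4.12, 1.37, 19.98, 1.67 and 41.3 FPKM in DSS+ICB. For both, DSS+ICB 5 was highest and DSS+ICB 3 next, and the lowest DSS+ICB mouse (DSS+ICB 4 for Il1b and DSS+ICB 2 for Il1a) exceeded the highest DSS mouse. Their log2 differences were 3.07 ± 0.64 and 2.35 ± 0.72 (SE, limma adjusted p = 0.597 and 0.6001), and 1.95 and 1.06 without both mice. The receptors Il1rl1 and Il1r1 and the alarmin Il33 had 1.80, 1.01 and 1.48. The inflammasome genes Nlrp6, Casp1 and Pycard and the cytokine gene Il18 had -1.55, -0.87, -0.86 and -0.99, and -0.37, -0.14, 0.06 and 0.14 without both mice, while Casp4 had 0.23. The median of the 16 tested members was 0.27, with 9 above 0, and ranged from 0.09 without DSS+ICB 5 to 0.36 without DSS+ICB 2. Acod1, the enzyme of activated macrophages that makes itaconate, was in no list and was 1.04, 0.431, 0.377, 1.34 and 0.394 FPKM in DSS and 6.76, 4.25, 102, 2.12 and 51.5 FPKM in DSS+ICB. DSS+ICB 4 was closest to the DSS mice, and the log2 difference of 3.14 was 1.59 without DSS+ICB 3 and DSS+ICB 5.

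Of the tested gp130 family cytokines, Il11 and Osm were separated and higher, and Lif and Clcf1, at 0.36 and 0.50, overlapped. Il11 (ENSMUSG00000004371, chromosome 7, 4772373 to 4782859), which stromal cells make and which acts on fibroblasts and epithelium, was 0.391, 1.22, 0.372, 0.221 and 0.353 FPKM in DSS and 4.601, 6.65, 10.5, 1.65 and 10.5 FPKM in DSS+ICB. DSS 2 was the highest DSS mouse and lay just below DSS+ICB 4, the lowest of its group. The log2 difference was 2.21 ± 0.38 (SE, limma adjusted p = 0.429). Osm, oncostatin M of myeloid cells, was 0.459, 0.415, 0.391, 0.416 and 0.0277 FPKM in DSS and 3.32, 1.69, 10.1, 1.29 and 16.3 FPKM in DSS+ICB. Socs3, a feedback inhibitor that STAT3 induces, was 8.15, 3.99, 6.69, 3.54 and 8.19 FPKM in DSS and 8.84, 10.4, 42.6, 17.3 and 62.1 FPKM in DSS+ICB, with DSS+ICB 1 close to DSS 5. Il6 missed the filter and was 0.147, 0.307, 0.0762, 0.0663 and 0.139 FPKM in DSS and 0.307, 0.954, 1.18, 0.579 and 2.37 FPKM in DSS+ICB. The receptor side was nearer to 0, with Osmr at 0.85, Il11ra1 at 0.45 (0.22 without DSS+ICB 3), Il6ra at 0.30 and the shared chain Il6st at 0.27 (0.10). All 13 tested members were above 0 with a median of 0.50, which was 0.21 without both mice, and the list level of all 5 DSS+ICB mice was above that of every DSS mouse.

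Genes of the TNF pathway and of microbe recognition gave smaller values. Tnf was 2.68, 2.73, 2.22, 1.01 and 3.81 FPKM in DSS and 2.99, 2.93, 10.2, 3.54 and 12.7 FPKM in DSS+ICB, so that the groups overlapped, and its log2 difference of 0.94 (limma adjusted p = 0.6001) was 0.30 without both mice. None of the 22 TNF and NF-kB feedback genes was separated, 20 were above 0 and the median was 0.35, from 0.18 without DSS+ICB 5 to 0.43 without DSS+ICB 2. Without DSS+ICB 3 and DSS+ICB 5 it was 0.11, with 14 of 22 above 0, beside 8739 of all 14385 tested genes. Myd88, the adaptor of most Toll-like receptors, was 15.02, 14.8, 14.1, 13.1 and 14.6 FPKM in DSS and 15.3, 18.3, 29.4, 16.6 and 27.3 FPKM in DSS+ICB, separated but with DSS+ICB 1 next to DSS 1. Tlr3, the endosomal receptor for double-stranded RNA, went the other way at 4.305, 6.17, 5.55, 5.13 and 4.7002 FPKM in DSS and 3.42, 2.897, 2.93, 3.07 and 3.52 FPKM in DSS+ICB. The 5 DSS+ICB mice were close together for Tlr3, and the log2 difference of -0.56 ± 0.12 (SE, limma adjusted p = 0.597) was -0.57 without DSS+ICB 3 and DSS+ICB 5. Of the 15 tested pattern recognition receptors and adaptors, these 2 were separated, and the median was 0.23, from 0.08 without DSS+ICB 5 to 0.29 without DSS+ICB 4.

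By median, matrix-cutting enzymes and their inhibitors followed the haemoglobin, neutrophil and neutrophil-attracting chemokine lists. Mmp10 (ENSMUSG00000047562, chromosome 9, 7502352 to 7510240), a stromelysin of injured epithelium and macrophages, was 2.38, 1.901, 2.16, 0.475 and 1.62 FPKM in DSS and 10.1, 8.01, 13.4, 8.46 and 18.9 FPKM in DSS+ICB. DSS+ICB 2 was the lowest and DSS+ICB 5 the highest of its group, and the log2 difference was 2.23 ± 0.28 (SE, limma adjusted p = 0.0512) and 1.91 without both mice. Mmp13, a collagenase, was 2.72, 2.09, 1.58, 0.8197 and 2.096 FPKM in DSS and 5.05, 7.896, 13.4, 5.13 and 20.3 FPKM in DSS+ICB. Timp1, an inhibitor of these enzymes, was 9.599, 10.1, 5.502, 5.25 and 2.59 FPKM in DSS and 12.8, 23.95, 83.7, 16.3 and 38.5 FPKM in DSS+ICB. Enzymes and inhibitor were therefore separated in the same direction. Plaur, the urokinase receptor, was separated with 1.26, and Mmp3 (1.87), Adamts1 (1.07) and Adamts4 (1.03, and 0.66 without DSS+ICB 5) overlapped. Of 21 tested members, 19 were above 0 with a median of 0.78, and 18 were above 0 without DSS+ICB 3 and DSS+ICB 5, with a median of 0.39. DSS+ICB 1 to 5 lay 0.53, 0.61, 1.36, 0.40 and 1.45 above the DSS mean on the log2 scale, all above the highest DSS mouse at 0.25.

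Of the collagen and fibroblast matrix genes, 4 were separated and higher, Lox, Pdpn, Col18a1 and Col3a1. Lox, which cross-links collagen, was 3.43, 1.398, 2.41, 2.51 and 1.09 FPKM in DSS and 5.62, 4.92, 18.4, 4.04 and 7.1996 FPKM in DSS+ICB. Pdpn, a surface protein of activated fibroblasts and lymphatic vessels, was 12.7, 13.1, 10.99, 8.51 and 9.02 FPKM in DSS and 15.6, 26.5, 48.99, 16.6 and 45.5 FPKM in DSS+ICB. Col18a1, a basement membrane collagen, was 9.504, 5.697, 8.05, 6.19 and 6.997 FPKM in DSS and 17.7, 11.4, 19.8, 10.1 and 25.5 FPKM in DSS+ICB. Col3a1 had a log2 difference of 0.74. Those of Lox, Pdpn and Col18a1 were 1.38, 1.28 and 1.05, and 0.93, 0.77 and 0.74 without both mice. Of 29 tested members, 28 were above 0 with a median of 0.66, and 26 with a median of 0.33 without DSS+ICB 3 and DSS+ICB 5. The BMP antagonist Grem1 (1.69), the activin gene Inhba (1.18) and Tnc (1.01) were above 1 with overlapping groups, and Grem1 and Tnc had 1.03 and 0.54 without DSS+ICB 3. The summed FPKM of 16 smooth muscle genes was 2144 to 6312 in DSS and 19623 in DSS+ICB 3. The part of muscle content in the collagen result was not tested. Without that mouse the collagen median was 0.53 and the smooth muscle median -0.37.

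Vessel and blood genes followed. All 20 tested endothelial and leukocyte adhesion genes were above 0, with a median of 0.64, and all 20 were above 0 also without DSS+ICB 3 and DSS+ICB 5, with a median of 0.32. The separated member was Selp, P-selectin, on which leukocytes roll along activated vessels. Selp was 1.48, 0.857, 1.26, 0.593 and 0.531 FPKM in DSS and 2.29, 3.44, 3.09, 2.095 and 10.6 FPKM in DSS+ICB, with DSS+ICB 5 far above the others and a log2 difference of 1.28 that was 0.90 without both mice. The fenestral protein Plvap (1.18), the vessel claudin Cldn5 (1.01) and the gut homing receptor ligand Madcam1 (1.01) came next, while Vcam1 had 0.59, and 0.35 without DSS+ICB 5. Haemoglobin genes, a measure of red cells in the tissue, had a median of 1.79 over 5 tested members with overlapping groups. Hba-a1 was 21.9, 23.3, 47.8, 91.7 and 13.7 FPKM in DSS and 33.99, 56.96, 159, 239 and 295 FPKM in DSS+ICB, highest in DSS+ICB 5 and DSS+ICB 4. Reads shared between Hba-a1 and Hba-a2 make the split between these copies uncertain. On the mean of the haemoglobin members, DSS+ICB 1 to 5 lay 0.11, 0.62, 2.005, 2.57 and 2.98 above the DSS mean on the log2 scale. For the neutrophil list these values were 1.17, 0.76, 3.01, 0.77 and 2.77. The part of blood content in the neutrophil result was not tested.

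Of 20 tested macrophage and monocyte genes, Spp1 and Fcer1g were separated and higher (10%), beside 1.21% of all tested genes. Spp1 could pass the filter through the DSS+ICB mice alone. Spp1, osteopontin, was 0.331, 0.278, 0.484, 0.389 and 0.133 FPKM in DSS and 2.18, 1.31, 22.8, 2.13 and 20.04 FPKM in DSS+ICB. Fcer1g, the signalling chain of Fc receptors, was 16.6, 22.1, 21.6, 12.4 and 17.2 FPKM in DSS and 23.5, 29.2, 49.7, 30.2 and 61.3 FPKM in DSS+ICB. The median of the list was 0.17, from -0.08 without DSS+ICB 5 to 0.40 without DSS+ICB 3. The macrophage receptor Adgre1 had -0.39 with all mice, 0.02 without DSS+ICB 3 and -0.76 without DSS+ICB 5, and Mertk had -0.60, and -0.27 without DSS+ICB 3. Mast cell genes had a median of -0.10 over 4 tested members, from -0.34 without DSS+ICB 5 to 0.19 without DSS+ICB 3.

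The targets of the treatment class and the cells that carry them were measured at low levels. Pdcd1, which encodes PD-1, missed the filter and was 0.798, 0.661, 0.618, 0.174 and 0.227 FPKM in DSS and 0.439, 0.606, 0.887, 0.309 and 1.21 FPKM in DSS+ICB. Ctla4 missed it too and was 0.847, 0.622, 0.894, 0.342 and 0.416 FPKM in DSS and 0.718, 0.452, 0.5099, 1.51 and 4.66 FPKM in DSS+ICB. Cd274, which encodes PD-L1, was 2.38, 2.205, 5.08, 1.75 and 2.76 FPKM in DSS and 2.196, 1.52, 9.17, 3.58 and 13.03 FPKM in DSS+ICB. The groups overlapped for all 3 genes, and the Cd274 log2 difference of 0.59 (limma adjusted p = 0.666) was -0.15 without DSS+ICB 3 and DSS+ICB 5. Lag3 ranged from 0.367 to 1.21 FPKM in DSS and from 0.526 to 1.69 in DSS+ICB, Foxp3, of regulatory T cells, from 0.0303 to 0.42 and from 0.09 to 1.19, and Pdcd1lg2 from 0.0521 to 0.237 and from 0.0482 to 0.73. Of 26 checkpoint receptors and ligands on the list, 16 were tested and 0 were separated, near the 1.21% higher and 0.327% lower of all tested genes. The list median was 0.08, from -0.13 without DSS+ICB 5 to 0.19 without DSS+ICB 3. Entpd1, the ectonucleotidase CD39, and Vsir had 0.93 and 0.78 with all mice and 0.33 and 0.37 without DSS+ICB 3 and DSS+ICB 5. Nt5e, the ectonucleotidase CD73, had -0.57. RNA levels of a blocked receptor do not measure the blockade.

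T cell genes lay above 0 in 12 of 12 tested members, with a median of 0.42, from 0.25 without DSS+ICB 5 to 0.56 without DSS+ICB 2, and 0 separated. Trbc2, a T cell receptor constant gene, was 4.81, 3.66, 5.62, 3.21 and 3.13 FPKM in DSS and 2.96, 6.81, 9.72, 9.63 and 9.01 FPKM in DSS+ICB. DSS+ICB 1 was below every DSS mouse for Trbc2, and the other 4 were above every DSS mouse. Without DSS+ICB 3 and DSS+ICB 5 the list median was 0.16, with 8 of 12 above 0, beside 8739 of all 14385 tested genes. The cytotoxic protease gene Gzmb had 0.53, and 0.27 without DSS+ICB 5, while Cd8a and Prf1 missed the filter.

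Interferon and T helper cytokines were low. Ifng was listed at 0 in 2 mice of each group and reached 0.036 FPKM in DSS and 0.172 in DSS+ICB. Il17a was at most 0.526 FPKM in DSS and 0.945 in DSS+ICB. Il22 was 0.0545, 0.315, 0.168, 0.112 and 0 FPKM in DSS and 0, 0.0522, 0.0593, 0.0365 and 17.8 FPKM in DSS+ICB, high in a single mouse, DSS+ICB 5. Il10 was also highest in that mouse, at 2.34 FPKM against at most 0.491 in the other 9. Among 19 tested interferon gamma response genes 0 were separated and the median was 0.08, from -0.15 without DSS+ICB 5 to 0.23 without DSS 3, and -0.23 without DSS+ICB 3 and DSS+ICB 5. The transcription factor gene Irf1 had -0.43. Type I interferon stimulated genes had a median of -0.10 over 20, from -0.23 without DSS 1 to 0.18 without DSS 3, with 13 below 0. Ifitm3 of that list had 1.09, and 0.70 without DSS+ICB 3. The median of class II antigen presentation genes was 0.06, from -0.15 without DSS+ICB 5 to 0.25 without DSS+ICB 1, with 0 of 10 separated. For class I it was -0.12, from -0.17 without DSS+ICB 5 to -0.05 without DSS 5, with 0 of 15 separated. Both counts of 0 are near the 1.21% higher and 0.327% lower of all tested genes. B cell and plasma cell genes had a median of 0.14, from -0.10 without DSS 5 to 0.47 without DSS 1. The antibody joining chain gene Jchain had -1.15, which was -0.60 without DSS+ICB 3.

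Colonocyte, goblet cell and junction genes lay on the lower side, with a large share from DSS+ICB 3. Other epithelial lists did not, since the tuft cell and fetal-like repair medians were 0.38 each, over 5 and 17 tested members. The enteroendocrine median was -0.11 over 11, from -0.30 without DSS+ICB 5 to 0.34 without DSS+ICB 3. Slc26a3, the chloride-bicarbonate exchanger of surface colonocytes, was 39.4, 59.2, 40.3, 52.2 and 69.5 FPKM in DSS and 31.6, 22.6, 0.296, 26.3 and 4.84 FPKM in DSS+ICB. Its lowest DSS value, DSS 1, was above its highest DSS+ICB value, DSS+ICB 1, and DSS+ICB 3 was more than 10 times lower than the next lowest mouse. The log2 difference of -2.24 ± 0.79 (SE, limma adjusted p = 0.6001) was -1.47 without DSS+ICB 3 and -0.91 without DSS+ICB 3 and DSS+ICB 5. Slc34a2, a sodium-phosphate cotransporter, was 3.96, 6.12, 6.103, 9.41 and 7.47 FPKM in DSS and 3.905, 2.75, 0.0916, 2.36 and 1.08 FPKM in DSS+ICB. The sulfate transporter Slc26a2 was also separated, at -1.22, and -0.41 without both mice. All 26 tested colonocyte and ion transport genes were below 0 with a median of -0.92, which was -0.38 without DSS+ICB 3 and -0.29 without both. DSS+ICB 1 to 5 lay at -0.14, -0.31, -3.26, -0.41 and -0.91 from the DSS mean on the log2 scale, and the lowest DSS mouse lay at -0.16. The butyrate and iodide transporter Slc5a8 (-1.92), the guanylin gene Guca2a (-1.26), the water channel Aqp8 (-1.20) and the carbonic anhydrase Car4 (-1.07) overlapped, and they had -1.14, -0.77, -0.53 and -0.50 without DSS+ICB 3.

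**Figure D3:**
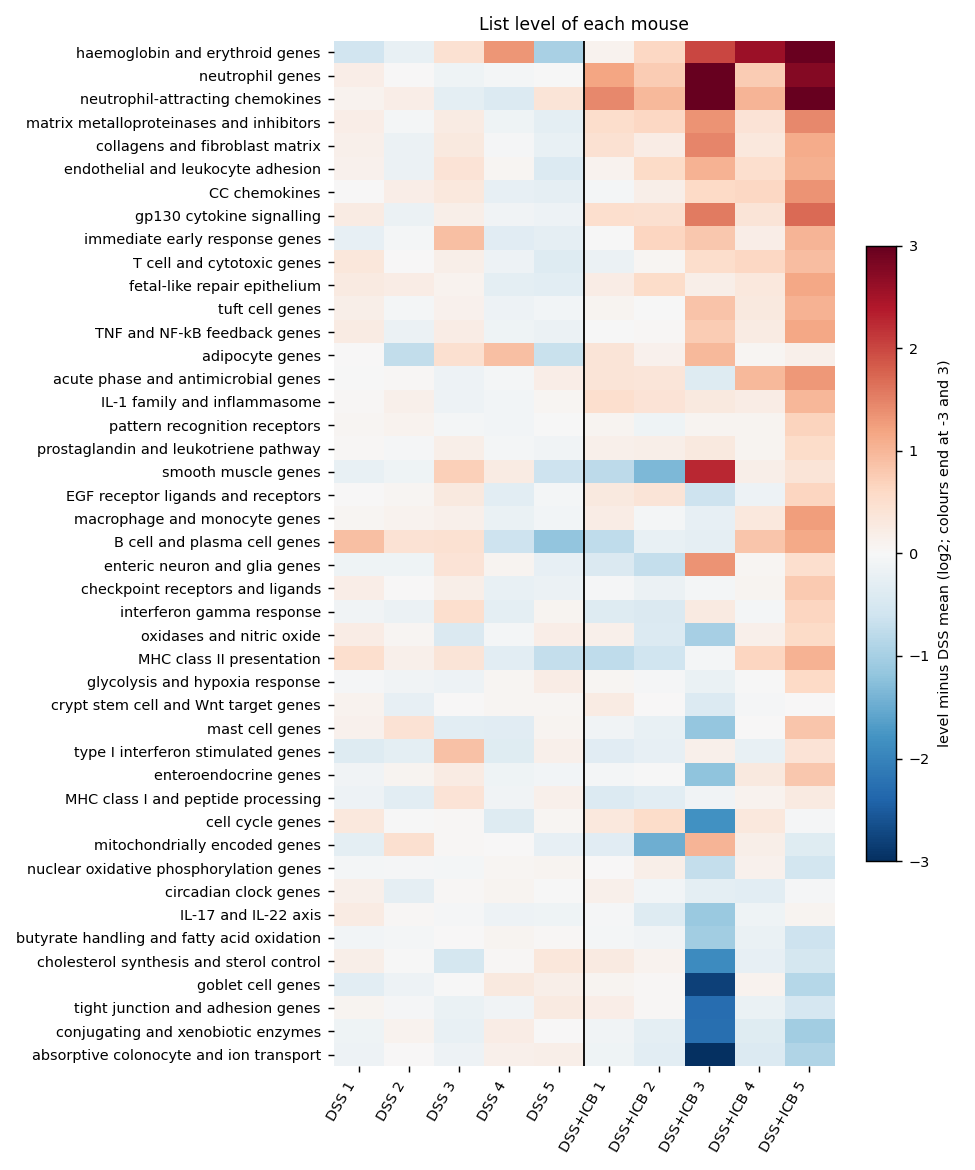
Level of 44 gene lists in each of the 10 mice, as the mean log2(FPKM + 1) of the tested members minus the mean of the 5 DSS mice, with lists ordered by median difference. DSS+ICB 3 and DSS+ICB 5 carry most of the strong colours, and the neutrophil row is above the DSS mice in all 5 DSS+ICB mice.

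Goblet cell, junction and cholesterol medians also moved toward 0 without that library. Muc2, the main mucin, was 133, 176, 259.6, 284 and 226 FPKM in DSS and 213, 187, 13.04, 259.9 and 149.9 FPKM in DSS+ICB, low in DSS+ICB 3 alone, and its log2 difference of -0.84 was -0.07 without it. The goblet cell median of -0.53 over 17 tested members ranged from -0.93 without DSS+ICB 4 to -0.08 without DSS+ICB 3. Without DSS+ICB 3 the junction median of -0.60 over 22 was -0.12, and the cholesterol synthesis median of -0.49 over 21 was -0.11. Separated members numbered 0 of 17, 0 of 22 and 0 of 21, near the 1.21% higher and 0.327% lower of all tested genes. Cell cycle genes turned direction, with a median of -0.15 and 5 of 20 above 0 with all mice. Without DSS+ICB 3 their median was 0.27 with 20 of 20 above 0, beside 8839 of all 14385 tested genes. Mki67, which marks dividing cells, was 35.8, 37.5, 30.9, 22.2 and 35.7 FPKM in DSS and 37.9, 45.9, 4.54, 32.99 and 23.9 FPKM in DSS+ICB. The smooth muscle median turned from 0.19 to -0.37, with 0 of 16 above 0 without DSS+ICB 3, and without DSS+ICB 2 the cell cycle and smooth muscle medians were -0.30 and 0.51. Lgr5, a stem cell receptor, ranged from 0.271 to 1.37 FPKM in DSS and from 0.0944 to 1.39 in DSS+ICB, and crypt stem cell and Wnt target genes had a median of -0.07 over 15, from -0.20 without DSS+ICB 2 to 0.04 without DSS+ICB 3.

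Metabolic genes of the epithelium had a negative median both with that library and without it. Ppargc1a, a coactivator that drives mitochondrial gene expression, was 4.89, 6.34, 5.36, 7.1 and 6.32 FPKM in DSS and 4.76, 4.09, 0.576, 3.38 and 1.39 FPKM in DSS+ICB. Acadm, the medium-chain acyl-CoA dehydrogenase of fatty acid oxidation, was 22.6, 26.1, 22.4, 27.7 and 25.8 FPKM in DSS and 21.4, 21.9, 14.9, 19.4 and 11.9 FPKM in DSS+ICB. Both were separated by narrow gaps at DSS+ICB 1 or DSS+ICB 2, with log2 differences of -1.02 and -0.48 that were -0.46 and -0.24 without DSS+ICB 3 and DSS+ICB 5. Butyrate handling and fatty acid oxidation genes had a median of -0.37, 20 of 23 below 0, and -0.23 without DSS+ICB 3 and -0.15 without both mice. Conjugating and xenobiotic enzymes had a median of -0.81, 30 of 33 below 0, and -0.48 without DSS+ICB 3 and -0.32 without both. The drug efflux pump gene Abcb1a was the separated member, at 23.9, 30.8, 30.2, 33.5 and 24.9 FPKM in DSS and 22.7, 17.1, 3.41, 23.6 and 17.6 FPKM in DSS+ICB. The sulfotransferases Sult1d1 and Sult1a1 had -1.88 and -1.77 (-1.18 for Sult1d1 without DSS+ICB 3), and Cyp2c55, a colonic cytochrome P450, -1.88. Cbr1, a carbonyl reductase outside the lists, was 30.02, 57.4, 31.2, 38.01 and 34.9 FPKM in DSS and 28.2, 21.4, 7.08, 16.9 and 13.8 FPKM in DSS+ICB. Abat, which breaks down the transmitter GABA, was 26.97, 30.3, 27.1, 33.6 and 34.97 FPKM in DSS and 26.9, 23.3, 1.84, 18.4 and 7.87 FPKM in DSS+ICB, with DSS+ICB 1 just under DSS 1.

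Nuclear oxidative phosphorylation and glycolysis genes had small medians. Mitochondrially encoded genes varied between mice, with list levels from -1.46 (DSS+ICB 2) to 1.02 (DSS+ICB 3) relative to the DSS mean on the log2 scale. For nuclear genes of oxidative phosphorylation the median was -0.20 with all mice, from -0.31 without DSS+ICB 2 to -0.09 without DSS+ICB 5, and 0.10 without DSS+ICB 3 and DSS+ICB 5. Genes of the mitochondrial genome took 17.04%, 9.39%, 33.2%, 20.5% and 16.8% of all FPKM in DSS+ICB 1 to 5, beside 17.7% to 25.8% in the DSS mice. Only DSS+ICB 4 lay within the DSS range. The median log2 difference of these genes was -0.18 over 13, from -0.46 without DSS+ICB 3 to 0.13 without DSS+ICB 2. The lactate exporter Slc16a3 was 2.59, 1.64, 1.58, 2.88 and 3.13 FPKM in DSS and 4.42, 3.23, 10.1, 3.97 and 13.5 FPKM in DSS+ICB, separated with a log2 difference of 1.11. The glycolytic enzyme gene Aldoa was separated and lower, at 236.1, 244.2, 231.1, 273.1 and 255.8 FPKM in DSS and 229.4, 230.8, 203.1, 215.9 and 207.4 FPKM in DSS+ICB. Its log2 difference was -0.19, with a narrow gap between DSS 3 and DSS+ICB 2. Of 26 tested glycolysis and hypoxia genes, 1 was separated and higher and 1 lower (3.85% each), beside 1.21% and 0.327% of all tested genes. The median of the list was 0.01, from -0.09 without DSS+ICB 5 to 0.14 without DSS+ICB 3, and turned to -0.01 under each of the 3 other scalings.

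**Figure D4:**
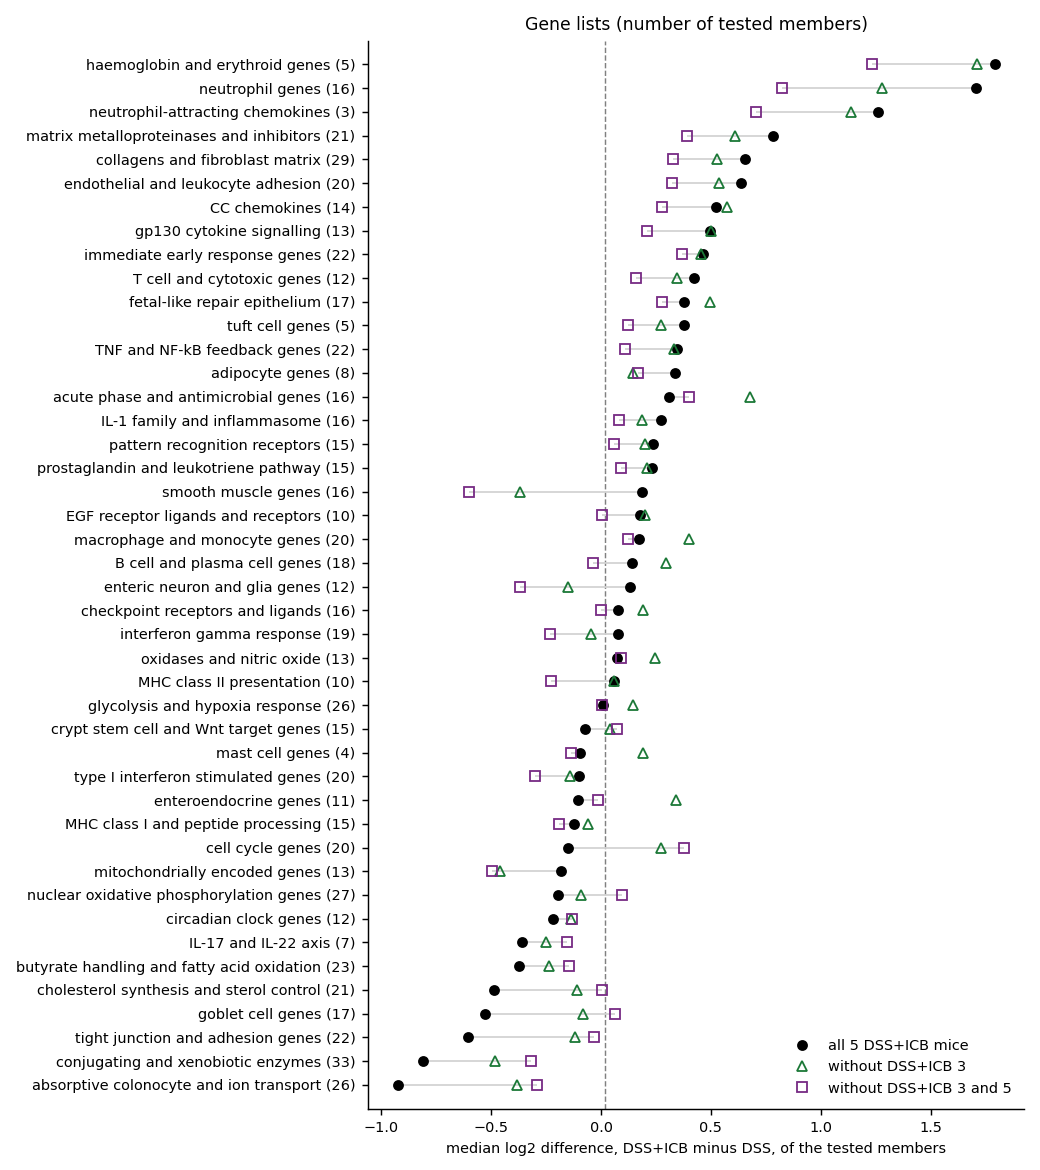
Median log2 difference (DSS+ICB minus DSS) of the tested members of 44 gene lists, with all 5 DSS+ICB mice (filled circles), without DSS+ICB 3 (triangles) and without DSS+ICB 3 and 5 (squares), and a dashed line at the median of all tested genes. The haemoglobin, neutrophil and neutrophil-attracting chemokine lists stay highest in all 3, while goblet cell, junction and cholesterol medians move to near 0 and the smooth muscle and cell cycle medians turn sign.

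Growth factor and repair genes gave 1 separated member, Spp1. Ereg, epiregulin, an EGF receptor ligand, was 5.5996, 10.5, 3.99, 1.18 and 3.11 FPKM in DSS and 14.9, 16.1, 20.6, 4.33 and 32.95 FPKM in DSS+ICB, with DSS+ICB 4 below DSS 1 and DSS 2. The receptor gene Erbb3 went the other way at -1.07, which was -0.47 without DSS+ICB 3. The list of EGF receptor ligands and receptors had a median of 0.18 over 10 with 4 below 0. That median ranged from 0.01 without DSS+ICB 2 to 0.30 without DSS+ICB 4. Ptgs2, the inducible cyclooxygenase, was 2.38, 10.5, 9.24, 1.46 and 2.78 FPKM in DSS and 7.47, 16.9, 22.1, 6.102 and 49.2 FPKM in DSS+ICB, and Hpgd, which degrades prostaglandins, had -1.24, which was -0.81 without DSS+ICB 3 and -0.37 without both DSS+ICB 3 and DSS+ICB 5. The fetal-like repair list had a median of 0.38 over 17, from 0.21 without DSS+ICB 5 to 0.49 without DSS+ICB 3. Immediate early genes, which handling of tissue can induce, reached a median of 0.46 over 22 with 0 separated, from 0.40 without DSS+ICB 5 to 0.83 without DSS 3, and their list level was highest in DSS+ICB 5 and in DSS 3. Ier3 and Nr4a1 had 1.43 and 1.24. Clock genes had a median of -0.22 over 12, from -0.27 without DSS 3 to -0.12 without DSS 5.

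The gene that passed the test is not one of these. Gm14686 (ENSMUSG00000081375, a transcribed processed pseudogene at chromosome X, 74261032 to 74261374 on the plus strand of GRCm38) fell from 5.97, 2.27, 5.64, 4.28 and 5.21 FPKM in DSS to 0.184, 0.226, 0.132, 0.123 and 0.269 FPKM in DSS+ICB. The groups were far apart, with a log2 difference of -2.21 ± 0.20 (SE, limma adjusted p = 0.00364) that was -2.22 without DSS+ICB 3 and DSS+ICB 5. It lies within Emd (chromosome X, 74254687 to 74261548, same strand), the gene of the nuclear envelope protein emerin. How reads were assigned to Gm14686 or to Emd is not given in the sources used here, so the split between them is uncertain. Emd itself was 18.6, 17.96, 22.3, 17.1 and 16.2 FPKM in DSS and 19.2, 23.1, 36.3, 22.2 and 25.9 FPKM in DSS+ICB. Gm14686 took either of 2 levels in the gavaged mice, at 0.1303, 4.62, 3.699, 0.131 and 0.136 FPKM. With all 15 libraries in the fit it did not pass (adjusted p = 0.247), and Saa3, Mmp10 and Il11 did (limma adjusted p = 0.00987, 0.034 and 0.0352).

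Other genes also took 2 levels, in both groups (Cldn2 and Mir8114) or in DSS+ICB (Krcc1). Cldn2, a pore-forming claudin, was 49.2, 52.6, 0.00598, 0.0122 and 62.5 FPKM in DSS and 71.4, 38.9, 0.2301, 42.9 and 0.0191 FPKM in DSS+ICB, near 0 in 2 mice of each group. Krcc1, a separated gene chosen after its values were seen, was 15.6, 16.1, 18.4, 15.9 and 14.9 FPKM in DSS and 55.8, 58.5, 46.7, 18.6 and 41.99 FPKM in DSS+ICB, so that DSS+ICB 4 had the DSS level. Mir8114, which overlaps the start of the glutamine synthetase gene Glul, was 201, 0.0349, 247, 239 and 224 FPKM in DSS and 192, 157, 47.5, 0.0837 and 129 FPKM in DSS+ICB. Glul ranged from 122 to 144 FPKM in DSS and from 65.7 to 148 in DSS+ICB and showed no such step.

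The 5 DSS+ICB libraries differed more from each other than the 5 DSS libraries did. DSS+ICB 3 and DSS+ICB 5 stood apart, with median rank correlations of 0.725 and 0.864, and the spread without them was not computed. On the log2 scale, genes had a median SD of 0.22 in DSS and 0.372 in DSS+ICB, and 78.7% of genes varied more in DSS+ICB. An SD above 1 was found for 180 genes in DSS and 1127 in DSS+ICB. Of the 5 DSS+ICB mice, DSS+ICB 3 was the lowest for 50.8% of genes and DSS+ICB 2 the highest for 30.6%. Over the 174 separated higher genes, DSS+ICB 3 was the highest mouse for 73, DSS+ICB 5 for 56, DSS+ICB 2 for 39, DSS+ICB 4 for 5 and DSS+ICB 1 for 1. Over the 47 separated lower genes, the lowest mouse was DSS+ICB 3 for 31 and DSS+ICB 5 for 12. Among genes with a large spread, the gasdermin gene Gsdmc4 was 236, 355, 152, 302 and 341 FPKM in DSS and 289, 247, 2.14, 179 and 57 FPKM in DSS+ICB, and the pentraxin gene Mptx1 was 9.65, 26.6, 106, 95.4 and 263 FPKM in DSS and 22.02, 156, 0.934, 185 and 7.02 FPKM in DSS+ICB. Mptx1 varied by more than 10 times within each group.

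**Figure D5:**
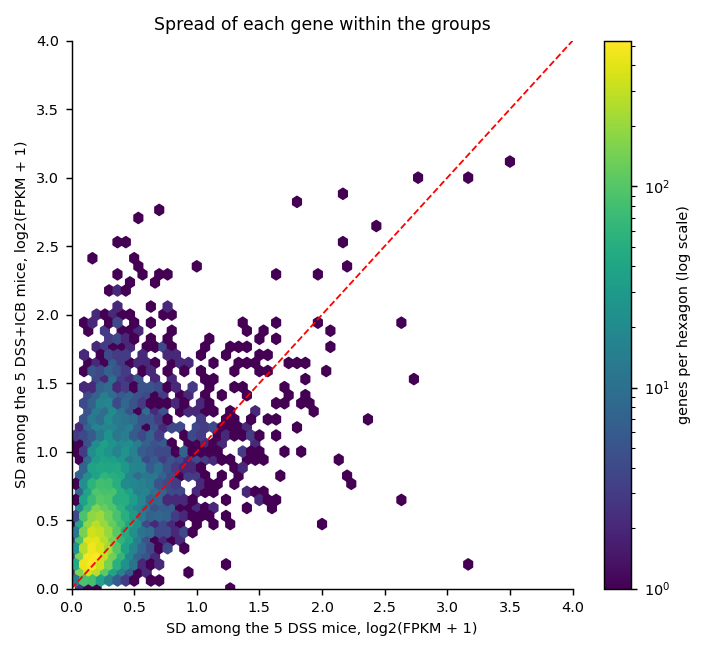
Standard deviation of each tested gene among the 5 DSS mice (horizontal) and the 5 DSS+ICB mice (vertical) on the log2(FPKM + 1) scale, with colour for the number of genes and a dashed line where both are equal. Most genes, 78.7%, lie above the line.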

How the data were processed

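RNA was sequenced from colon tissue of 15 mice, and the 10 mice of the groups DSS and DSS+ICB were compared. The deposited values are FPKM as the authors computed them, 1 per gene and mouse. Per the submitters' processing notes the tools were FastQC, STAR 2.5, Cuffnorm and DESeq with the build mm10, with no role given. Whether libraries were scaled further is not given in the sources used here. FPKM summed to 341054 to 443338 per library. Of 55335 Ensembl IDs, 55154 matched a GENCODE M21 symbol. Depth was estimated from the steps between low values of 19530 single-transcript genes, of which 26.8% to 30.9% fell near whole reads, so whole reads were not recovered and count tests were not used.

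Tests used log2(FPKM + 1), a scale on which differences of low genes are understated. limma 3.58.1 in R 4.3.3, with a trended prior and robust fitting, was fitted to the 10 libraries (two-sided, Benjamini-Hochberg adjusted over 14385 genes) and tested on simulated data. An exact permutation test of 5 against 5 mice has 252 arrangements and a smallest p of 0.00794, the value of every separated gene before adjustment, and was not used across genes. All differences are DSS+ICB minus DSS. Mice are numbered in the order of deposit.

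The members and the 44 gene lists (843 entries, 707 distinct genes tested) were chosen with earlier results of these data known. Genes were named by a rule: those that passed with 10 or 15 libraries, the 12 higher and 12 lower separated genes with the largest difference and at least 5 FPKM in the higher group (predicted models left out), up to 4 separated members of a list or else its 2 largest, 15 fixed genes, and 5 with the largest spread in DSS+ICB. Other list members and Krcc1 were named after their values were seen. Alternatives were 3 other scalings, other pseudocounts (0.1 and 10), other filters (none, or 5 FPKM), all 15 libraries, weights per library or per group, and libraries left out singly or as DSS+ICB 3 and 5 together. Some genes are not reported here.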

Additional observations from a re-analysis of the deposited data

Results flagged for a closer look

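For 324 groups of 5 values (list levels and named genes), the gap between the most extreme mouse and its nearest neighbour was divided by the range of the group. The ratio was above Dixon's 95% critical value of 0.71 in 26 of them. The usual reference of about 1 in 20 does not apply here. The groups share mice and genes, and some genes were chosen for their difference or spread. The mouse standing apart was DSS+ICB 3 in 12 of the 26.

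DSS+ICB 3 was lowest for the list levels of cell cycle genes (ratio 0.748), absorptive colonocyte and ion transport (0.752) and tight junction and adhesion genes (0.717). It was lowest for Abcb1a (0.822), Oas1a (0.782), Jchain (0.751), the mast cell protease Cma1 (0.712), the neuregulin receptor Erbb3 (0.721), Top2a (0.83), Ocln (0.795) and Muc2 (0.813), and highest for the glial factor Sox10 (0.724). DSS+ICB 5 was highest for the levels of checkpoint receptors and ligands (0.738) and pattern recognition receptors (0.732), for Selp (0.726) and for Il22 (0.98). DSS+ICB 4 was lowest for Mir8114 (0.734).

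Among DSS mice, DSS 2 was lowest for the level of crypt stem cell and Wnt target genes (0.718) and for Mir8114 (0.962), and highest for Il11 (0.782) and Il17a (0.781). DSS 3 was highest for the level of immediate early response genes (0.779) and for Sox10 (0.717) and lowest for Clca4b (0.723). DSS 5 was lowest for Osm (0.865) and highest for Ido1 (0.728).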

How the results depend on the processing

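The limma count of 1 gene was 0 with a pseudocount of 10 (smallest adjusted p = 0.0838, 1205 genes with an unadjusted p under 0.05) and 0 with the filter at 5 FPKM, where Gm14686 was not tested (0.0688, 615 genes). It was 3 with all 15 libraries (Saa3, Mmp10, Il11), 3 with weights per library (Saa3, Mmp10, Gm14686), and 1 to 3 when a single library was left out, with Saa3 added without DSS+ICB 2 and Il11 and Krcc1 added without DSS+ICB 4. The range of adjusted p over the alternatives was, for Gm14686, 7.43e-05 to 0.247, for Saa3 0.00987 to 0.585, for Mmp10 0.0211 to 0.237 and for Il11 0.01 to 0.887.

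The 221 separated genes were 359 with no filter, 115 with the filter at 5 FPKM, 253 to 673 with 1 library left out and 764 without DSS+ICB 3 and DSS+ICB 5, where fewer mice make separation more frequent by construction. Of the 221, 155, 147 and 137 were separated under the 3 other scalings. Gm14686 was lower in DSS+ICB in every alternative that tested it. No paired analysis was possible because the labels give no number shared between the groups.

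Depth is an estimate, and genes under 1 FPKM in most libraries, among them Pdcd1, Ctla4, Ifng, Il17a and Il22, were not tested. The cause of the differences between DSS+ICB mice was not tested, and no alternative separates the blockade from procedure or cage.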

Other observations

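Other separated higher genes lay outside the lists. They were named after their values were seen. Ifitm1, an interferon-induced membrane protein, was 34.6, 39.9, 25.05, 16.8 and 28.6 FPKM in DSS and 55.9, 63.8, 195, 76.6 and 129 FPKM in DSS+ICB. Serpina3n, a secreted protease inhibitor, was 50.2, 36.5, 24.8, 14.99 and 28.6 FPKM in DSS and 79.8, 66.7, 122, 90.04 and 196 FPKM in DSS+ICB. Igfbp5, an insulin-like growth factor binding protein of stromal cells, was 53.9, 37.5, 57.3, 35.2 and 48.2 FPKM in DSS and 70.8, 74.1, 562, 69.03 and 236 FPKM in DSS+ICB. Wnt4, a Wnt ligand, was 2.58, 1.604, 1.67, 1.75 and 2.14 FPKM in DSS and 3.32, 5.49, 8.43, 3.35 and 4.58 FPKM in DSS+ICB. Hmox1, which degrades haem, was 7.004, 7.08, 7.11, 4.66 and 6.196 FPKM in DSS and 7.79, 8.91, 20.9, 8.48 and 27.3 FPKM in DSS+ICB. In these 5 genes every DSS+ICB mouse lay above every DSS mouse.

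Of the 174 separated higher genes, 155 were protein coding, 33 were on a list and 49 had a log2 difference over 1. Of the 47 separated lower genes, 43 were protein coding, 7 were on a list and 9 were past -1. Among the lower genes outside the lists, Maob, a monoamine oxidase, was 7.28, 7.34, 9.41, 10.01 and 9.61 FPKM in DSS and 7.11, 6.22, 6.57, 6.21 and 3.92 FPKM in DSS+ICB. Esrrg, an orphan nuclear receptor of oxidative metabolism, was 1.08, 0.9197, 0.822, 1.02 and 1.23 FPKM in DSS and 0.725, 0.745, 0.133, 0.672 and 0.468 FPKM in DSS+ICB. Mxi1, an antagonist of Myc, was 7.05, 5.99, 6.77, 6.84 and 7.57 FPKM in DSS and 5.79, 4.58, 2.88, 3.69 and 3.54 FPKM in DSS+ICB, and its log2 difference of -0.65 was -0.48 without DSS+ICB 3 and DSS+ICB 5.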
